A study of Arabidopsis thaliana with 8 samples.

Results

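The genes described here are the 5 Kunitz-type protease inhibitor loci AT1G73330 (DR4), AT1G73325, AT1G73260 (KTI1), AT1G72290 and AT1G17860 of Arabidopsis thaliana, 5 of 27655 loci in the deposited table. They were chosen by family, and chiefly for their change between day 10 and day 16 in each genotype, so their change with age is given as a description without a test. The annotation names 7 Kunitz-type loci in all; the other two, AT3G04320 and AT3G04330, were listed at 0 in all 8 libraries. RNA of shoot apices was sequenced from a line that carries pFD::amiR-PECT1, an artificial microRNA against PECT1 driven by the promoter of FD, and from wild type. The 4 groups were the knockdown line at day 16, the knockdown line at day 10, wild type at day 16 and wild type at day 10, with 2 libraries each. All plants grew on 1/2 MS plates in short days at 23 °C and were sampled at ZT 8. The labels do not say how many transgenic lines were used, or whether both libraries of a group are from separate plants, so a p-value here covers only the spread between the samples at hand, which may be technical. The comparisons ask which transcripts differ in the apex when PECT1 is targeted, at each age.

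Kunitz-type inhibitors are small secreted or vacuolar proteins with a beta-trefoil fold that block proteases, mainly serine proteases, by offering a loop to the active site. Plants make them in storage organs and in response to wounding, herbivores and pathogens. DR4 takes its name from a transcript that was repressed by drought. KTI1 is known to limit the cell death that pathogens trigger, and both KTI1 and AT1G17860 are known from the defence against spider mites. The protein of AT1G72290 is a water-soluble chlorophyll-binding protein that inhibits the cysteine protease RD21 in seedlings.

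All 5 loci lie on chromosome 1 of the TAIR10.1 assembly. DR4 spans 27568714 to 27569823 on the minus strand, as 1 exon of 1110 bases with 630 coding bases. AT1G73325, with 669 coding bases, lies 432 bases from it on the same strand, from 27567419 to 27568281. KTI1 lies at 27547098 to 27548282, also on the minus strand, 20.4 kb from DR4, and has 648 coding bases. AT1G72290, which also has 648 coding bases, lies on the plus strand at 27215787 to 27216857. AT1G17860 stands apart from the others on the plus strand at 6149178 to 6150038 and has 591 coding bases.

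The 250 bases before the transcript start are printed for 3 loci, because DR4 had the highest level of the 5 genes, AT1G73325 is its nearest relative and neighbour but was almost silent, and AT1G17860 was the other gene that passed the filter on low values. Sequences are from the RefSeq TAIR10.1 genome, 5′ to 3′ on the strand of the gene, at chr1:27569824-27570073 (minus), chr1:27568282-27568531 (minus) and chr1:6149051-6149300 (plus). The transcript of AT1G17860 starts at 6149301, inside the annotated locus, so 123 bases of its window lie within the locus. Capitals mark matches, on either strand, to the abscisic acid response element core ACGTG, the W-box core TTGAC, the dehydration response element core CCGAC and the TATA box TATAAA.
DR4: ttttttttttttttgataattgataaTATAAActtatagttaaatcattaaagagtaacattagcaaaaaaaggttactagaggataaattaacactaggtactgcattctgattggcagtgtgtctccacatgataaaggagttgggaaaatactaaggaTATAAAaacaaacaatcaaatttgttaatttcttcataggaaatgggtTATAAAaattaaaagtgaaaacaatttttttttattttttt
AT1G73325: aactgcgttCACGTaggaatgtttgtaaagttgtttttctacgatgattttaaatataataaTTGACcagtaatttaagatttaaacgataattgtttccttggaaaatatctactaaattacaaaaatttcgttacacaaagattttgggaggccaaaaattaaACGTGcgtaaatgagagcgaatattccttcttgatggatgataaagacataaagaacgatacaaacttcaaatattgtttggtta
AT1G17860: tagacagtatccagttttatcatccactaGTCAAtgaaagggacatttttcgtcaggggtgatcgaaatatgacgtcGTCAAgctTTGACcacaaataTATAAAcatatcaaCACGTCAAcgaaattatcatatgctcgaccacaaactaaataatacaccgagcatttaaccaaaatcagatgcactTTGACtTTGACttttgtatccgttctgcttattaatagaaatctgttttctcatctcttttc
The DR4 window held the TATA box letters at 3 places, which start 224, 89 and 41 bases before the transcript, and none of the other motifs. The AT1G73325 window held the abscisic acid element core starting at 241 and 85 bases and the W-box core starting at 188 bases. The AT1G17860 window held the W-box core at 6 places, the TATA box letters at 152 bases, and the abscisic acid element core at 138 bases, where it overlaps the W-box core that starts at 135 bases on the same strand. Over the same window of 27438 protein-coding genes, the abscisic acid element core was present in 22.9%, the W-box core in 44.9%, the dehydration element core in 12% and the TATA box letters in 47.4%. These matches describe letters and not binding sites.

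The coding sequences of the 5 genes shared 56.0% to 65.0% of aligned bases over the 10 pairs. DR4 and AT1G73325 shared 65.0%, 398 of 612 aligned bases. The longest identical run between the transcripts of any pair was 10 to 14 bases.

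Each library had an estimated depth of 15.37 to 18.12 M reads, with 16180 to 16883 loci at 1 RPKM or more (RPKM, reads per kilobase and M reads). PECT1, the target of the artificial microRNA, had 34.43 and 37.03 RPKM in knockdown apices at day 16 and 35.33 and 37.11 RPKM at day 10, against 40.41 and 41.32 RPKM in wild type at day 16 and 40.73 and 39.24 RPKM at day 10. All 4 knockdown libraries were below all 4 wild-type libraries, as for 4.93% of tested genes (861 of 17467). The difference did not pass the test (log2 fold change -0.16 ± 0.103 SE, limma adjusted p = 0.540, mean of both ages). Replicate 1 of the knockdown line at day 16 stood apart in its share of reads from nuclear genes, estimated at 85.4%, with 93.1% to 95.7% in the rest. Its mitochondrial loci summed to 264 RPKM, with 106 to 159 RPKM in the rest. Its chloroplast loci summed to 1817 RPKM, with 1071 to 1581 RPKM in the rest. What made up its lower nuclear share was not tested. The meristem gene STM had 6.31 to 17.46 RPKM over the 8 libraries, while the stem cell genes CLV3 (0 to 0.72 RPKM) and WUS (0 to 0.23 RPKM) were near 0.

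DR4 was the most abundant of the 5 genes in every library and was much higher at day 16 than at day 10 in both genotypes. In the knockdown line it had 177.22 and 221.87 RPKM at day 16 and 26.33 and 17.69 RPKM at day 10. In wild type it had 125.86 and 173.06 RPKM at day 16 and 17.04 and 14.92 RPKM at day 10. The 4 libraries of day 16 lay above the 4 of day 10 without overlap, with the lowest of day 16 at 125.86 RPKM and the highest of day 10 at 26.33 RPKM. Among all genes tested, 5.18% showed that separation.

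Group means of DR4 were 199.5 ± 31.6 RPKM in the knockdown line at day 16 and 22.0 ± 6.11 RPKM at day 10 (SD, n = 2 each). In wild type they were 149 ± 33.4 RPKM at day 16 and 16.0 ± 1.499 RPKM at day 10 (SD, n = 2 each). The ratio of day 16 to day 10 was 9.07 in the knockdown line and 9.35 in wild type. On the log2(RPKM + 1) scale the change with age was 3.14 ± 0.226 in the knockdown line and 3.13 ± 0.226 in wild type (limma estimate ± SE). In each genotype this placed DR4 4th from the top of 17467 genes, where 0.235% of genes in the knockdown line and 0.195% in wild type were called higher at day 16. The change in the knockdown line minus that in wild type was 0.01 ± 0.319. These values describe the contrast that chose the genes. In whole apices, fewer cells of a type and less RNA per cell cannot be told apart.

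**Figure D1:**
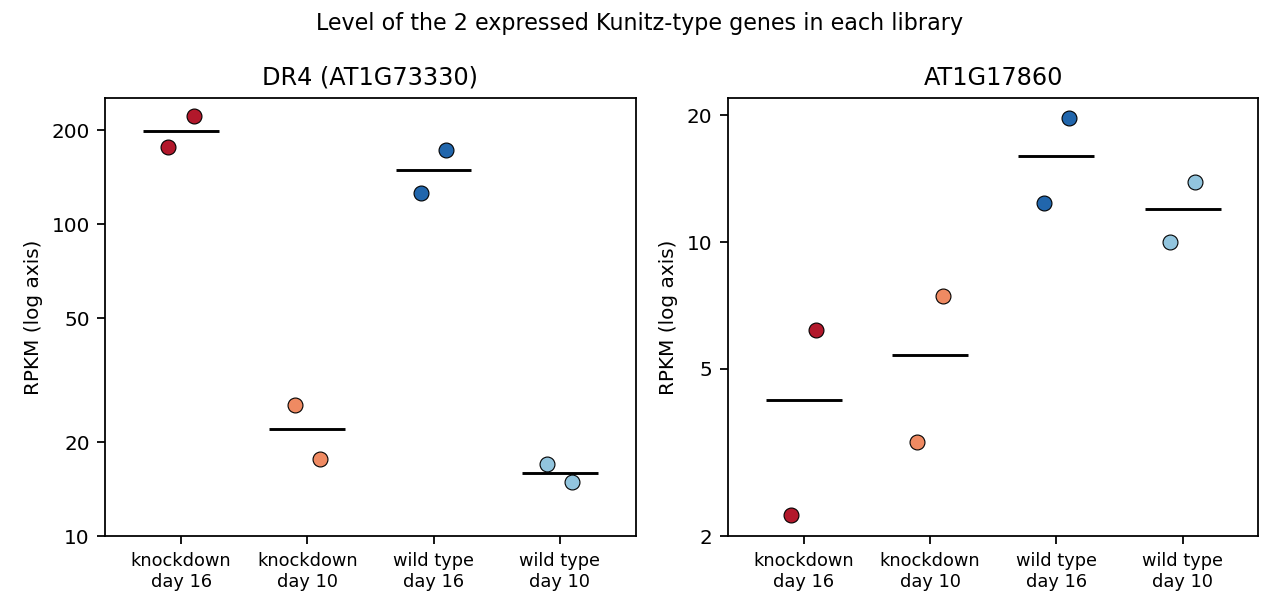
RPKM of DR4 (left) and AT1G17860 (right) on log axes in the 8 libraries, as points by group, with the mean of 2 libraries as a line. DR4 lies between 125.86 and 221.87 RPKM at day 16 and between 14.92 and 26.33 RPKM at day 10, while AT1G17860 lies between 2.25 and 7.45 RPKM in the knockdown line and between 10.01 and 19.73 RPKM in wild type.

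The difference in DR4 between the genotypes was small beside its change with age and did not pass the test. The knockdown mean was 1.34 times the wild-type mean at day 16 and 1.38 times at day 10. The knockdown libraries lay above the wild-type libraries at each age, which held for 8.39% of tested genes at day 16 and 19.9% at day 10. As the mean of both ages, the log2 fold change of the knockdown line over wild type was 0.42 ± 0.160 SE (95% interval 0.06 to 0.78, limma adjusted p = 0.356). At day 16 it was 0.42 ± 0.226 SE (95% interval -0.08 to 0.93, adjusted p = 0.811, limma). At day 10 it was 0.42 ± 0.226 SE (95% interval -0.09 to 0.92, adjusted p = 0.754, limma). Leaving out one library at a time gave 0.28 to 0.56 for the mean, 0.20 to 0.65 at day 16 and 0.14 to 0.69 at day 10.

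AT1G17860 was lower in all 4 knockdown libraries than in all 4 wild-type libraries, and this difference did not pass the test over all genes. At day 16 the knockdown libraries had 2.25 and 6.2 RPKM, against 12.36 and 19.73 RPKM in wild type. At day 10 the knockdown libraries had 3.35 and 7.45 RPKM, against 10.01 and 13.93 RPKM in wild type. At each age both knockdown libraries lay below both wild-type libraries, which held for 25.7% of tested genes at day 16 and 21% at day 10. Over both ages the highest knockdown library stood at 7.45 RPKM and the lowest wild-type library at 10.01 RPKM. Such a complete separation in this direction was seen in 4.93% of tested genes (861 of 17467), and in the opposite direction in 1.74%.

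Group means of AT1G17860 were 4.22 ± 2.79 RPKM in the knockdown line and 16.0 ± 5.21 RPKM in wild type at day 16 (SD, n = 2 each). At day 10 they were 5.40 ± 2.90 RPKM in the knockdown line and 11.97 ± 2.77 RPKM in wild type (SD, n = 2 each). The ratio of knockdown to wild type was 0.263 at day 16 and 0.451 at day 10. As the mean of both ages, the log2 fold change was -1.43 ± 0.299 SE (95% interval -2.10 to -0.76, limma adjusted p = 0.129), the 17th from the bottom of 17467 genes. At day 16 it was -1.78 ± 0.422 SE (95% interval -2.73 to -0.84, adjusted p = 0.419, limma), and at day 10 it was -1.08 ± 0.422 SE (95% interval -2.02 to -0.14, adjusted p = 0.701, limma). Neither DR4 nor AT1G17860 was called between the genotypes, where 0.246% of all genes were called for the mean over the ages, 0.115% at day 16 and 0.0744% at day 10.

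The estimate for AT1G17860 moved with single libraries. A fit left out replicate 1 of the knockdown line at day 16, the library with the lowest estimated nuclear share. Its log2 fold change was -1.21 for day 16 and -1.14 when averaged over the ages. Leaving out replicate 2 of that group instead gave -2.36 for day 16 and -1.72 when averaged over the ages. At day 10, leaving out one library at a time gave -1.56 to -0.60. Replicate 2 was above replicate 1 in all 4 groups for AT1G17860, as for 15.3% of tested genes.

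The authors' deposited table of lower genes at day 16 lists AT1G17860 with a signed fold of -3.53 and a p of 2.12e-05. The authors' deposited table for day 10 lists it with a signed fold of -2.2 and a p of 0.00724. Whether their p is adjusted is not stated. Before adjustment, limma gave AT1G17860 a p of 0.00185 at day 16 and 0.0288 at day 10. None of the other 4 genes stands in any of the authors' 4 deposited tables, which hold 321 higher and 331 lower loci at day 10 and 211 higher and 213 lower loci at day 16.

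**Figure D2:**
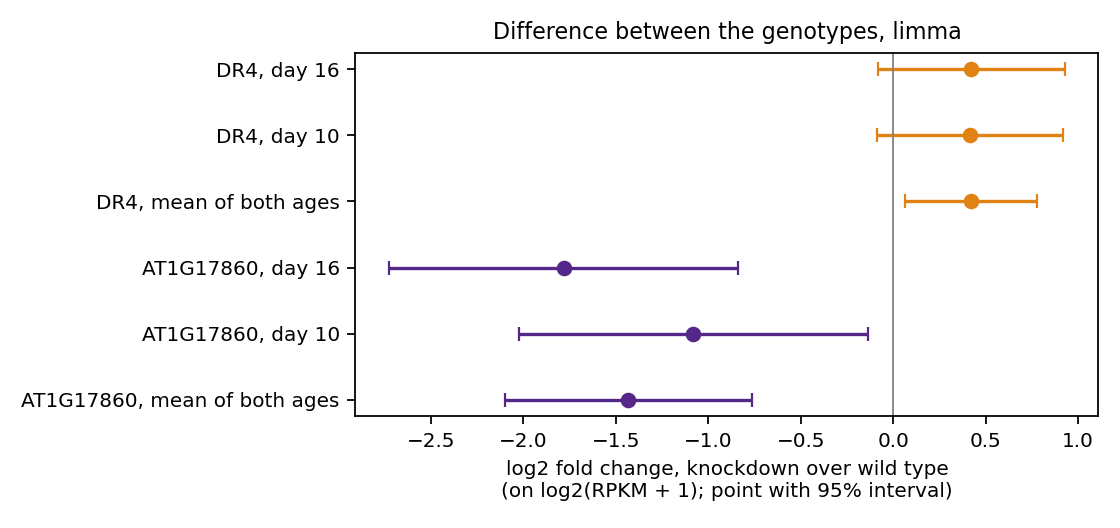
Log2 fold change on log2(RPKM + 1), knockdown over wild type, of DR4 and AT1G17860 for day 16, for day 10 and for the mean over ages (limma estimate as a point, 95% interval as a bar). The interval of AT1G17860 runs from -2.10 to -0.76 and that of DR4 from 0.06 to 0.78 for the mean of both ages, before adjustment over the 17467 genes.

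AT1G17860 overlaps other transcripts in the annotation. An antisense long noncoding RNA, AT1G05347, covers 734 of its bases and was not analysed here. EGY3, a homologue of chloroplast membrane proteases, overlaps it by 100 bases on the opposite strand and had 0.13 to 1.18 RPKM. The libraries were made with a directional kit, and the use of strand in counting is not known here, so reads of AT1G17860 and of its antisense partner cannot be told apart.

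With age AT1G17860 showed no shift like that of DR4. The ratio of its mean at day 16 to that at day 10 was 0.782 in the knockdown line and 1.34 in wild type. The log2 change was -0.33 ± 0.422 in the knockdown line and 0.38 ± 0.422 in wild type (limma estimate ± SE), and with one library left out at a time the knockdown value lay between -0.90 and 0.25 and the wild-type value between 0.06 and 0.69. In both genotypes the libraries of day 16 and day 10 overlapped.

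DR4 made up most of the summed RPKM of the 5 genes at day 16. In the knockdown line its share was 98.4% and 97.0% at day 16 and 88.7% and 69.3% at day 10. In wild type its share was 90.3% and 89.5% at day 16 and 62.2% and 50.2% at day 10. The level of DR4 per kilobase was 78.8 and 35.8 times that of AT1G17860 in the knockdown line at day 16, and 1.70 and 1.07 times in wild type at day 10. The summed level of the family was 180 and 229 RPKM in knockdown libraries of day 16, against 139 and 193 RPKM in wild type at day 16, and 25.5 to 29.8 RPKM over the 4 libraries of day 10. Ordered by level among all loci, DR4 ranked between 510 and 823 at day 16 and between 3625 and 5978 at day 10.

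The remaining 3 genes were low or listed at 0, and none passed the filter of at least 1 RPKM in at least 2 libraries, so 2 of the 5 genes were tested. In the knockdown line KTI1 had 0.55 and 0.65 RPKM at day 16, and at day 10 it was listed at 0 in replicate 1 and had 0.39 RPKM in replicate 2. In wild type KTI1 had 1.14 and 0.34 RPKM at day 16 and 0.34 and 0.9 RPKM at day 10. For KTI1 the genotypes overlapped at each age, and the ages overlapped in wild type. In the knockdown line both libraries of day 16 lay above both of day 10, where replicate 1 was listed at 0. These values rest on few reads, and the share of all genes separated in this way was not computed, so no change with age is read from them. A library held an estimated 0 to 23.9 reads. With no filter, over 22301 genes, its log2 fold change of knockdown over wild type was -0.26 ± 0.194 SE as the mean of both ages (adjusted p = 0.661, limma).

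AT1G73325 was listed at 0.06 RPKM in replicate 2 of the knockdown line at day 16, at 0.13 RPKM in replicate 2 of wild type at day 16, and at 0 in the other 6 libraries. AT1G72290 was listed at 0 in all 8 libraries. An exact 0 in the table may be a failed estimate, since MYC2, a regulator of jasmonate responses, was listed at 0 in 4 libraries and at 7.34 to 16.76 RPKM in the other 4. RD21A, which encodes the protease that the AT1G72290 protein inhibits, had 113.95 to 180.85 RPKM.

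The high level of DR4 at day 16 was not seen in the loci read between KTI1 and DR4, all on the KTI1 side of DR4. The locus on its other side was not read. An exact 0 may be a failed estimate here too. Between KTI1 and DR4 lie AT1G73325 and 6 other protein-coding loci. The serine carboxypeptidase-like genes scpl2, scpl3, scpl5 and scpl6 were listed at 0 in all 8 libraries. Another gene of that kind, scpl4, had 0.42 to 1.76 RPKM, and AT1G73320 had 1.12 to 3.79 RPKM. AT1G73320 had a log2 change with age of -0.31 in the knockdown line and 0.18 in wild type, and between the genotypes neither scpl4 (adjusted p = 0.763) nor AT1G73320 (adjusted p = 0.399) passed the limma test as the mean of both ages.

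**Figure D3:**
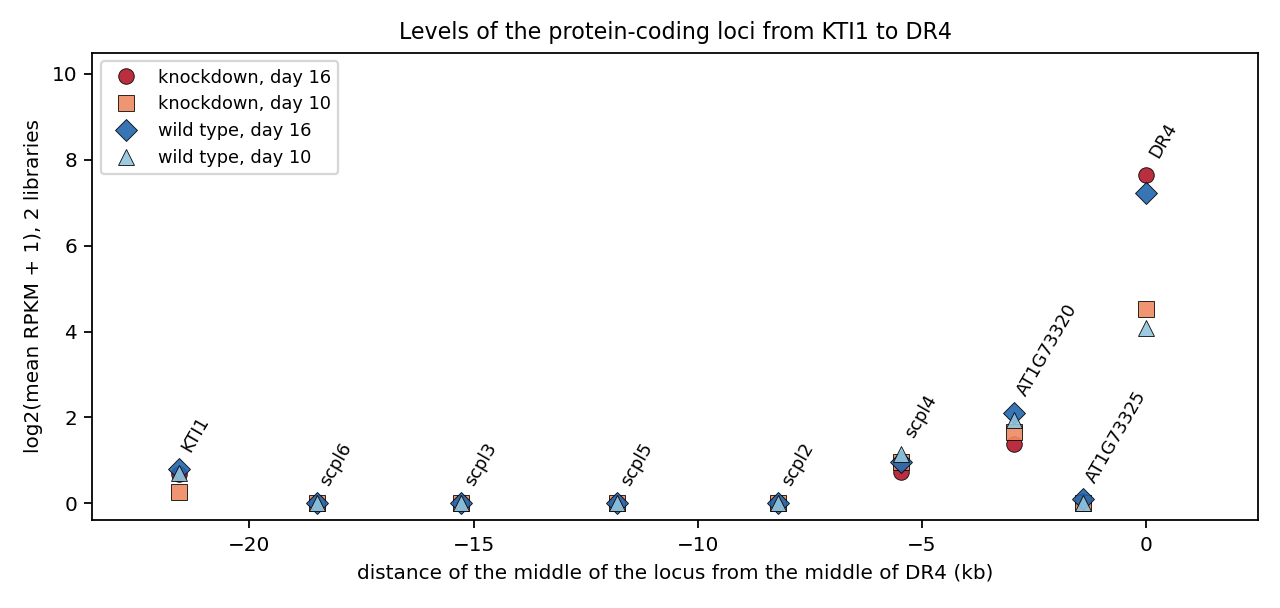
Log2(mean RPKM + 1) of the protein-coding loci from KTI1 to DR4 in the 4 groups (2 libraries each), by distance from the middle of DR4 in kb. In every group DR4 stands far above the other loci shown. Its knockdown means are 199.5 RPKM at day 16 and 22.0 RPKM at day 10. The loci scpl4 and AT1G73320 reach at most 3.79 RPKM in a library.

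The genes whose pattern over the 8 libraries was most like that of DR4, by Pearson r of log2(RPKM + 1) among 11551 genes with a mean of at least 5 RPKM, were IBH1, AAP2 and AT2G32870. Their r was 0.987 for IBH1, a repressor of cell elongation, 0.982 for AAP2, an amino acid permease, and 0.982 for AT2G32870. AAP2 averaged 111 RPKM at day 16 and 23.6 RPKM at day 10 in the knockdown line, and 79.5 RPKM at day 16 and 19.4 RPKM at day 10 in wild type. In all, 126 genes reached an r of 0.9 with DR4. The 8 points share libraries and fall into 2 ages, so r describes this data set and carries no p.

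For AT1G17860 the most alike were AT3G44620 (r of 0.984), TPP2 (0.981), which encodes tripeptidyl peptidase, and NS1 (0.978), which encodes an asparaginyl-tRNA synthetase. TPP2 averaged 18.7 RPKM in the knockdown line and 26.2 RPKM in wild type at day 16, and 19.4 RPKM in the knockdown line and 23.9 RPKM in wild type at day 10. For AT1G17860, 163 genes reached an r of 0.9 over the same 8 libraries. Like AT1G17860, the genes AT3G44620, TPP2 and NS1 were higher in replicate 2 than in replicate 1 in every group. That order held for 15.3% of tested genes, and its part in these r was not tested.

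**Figure D4:**
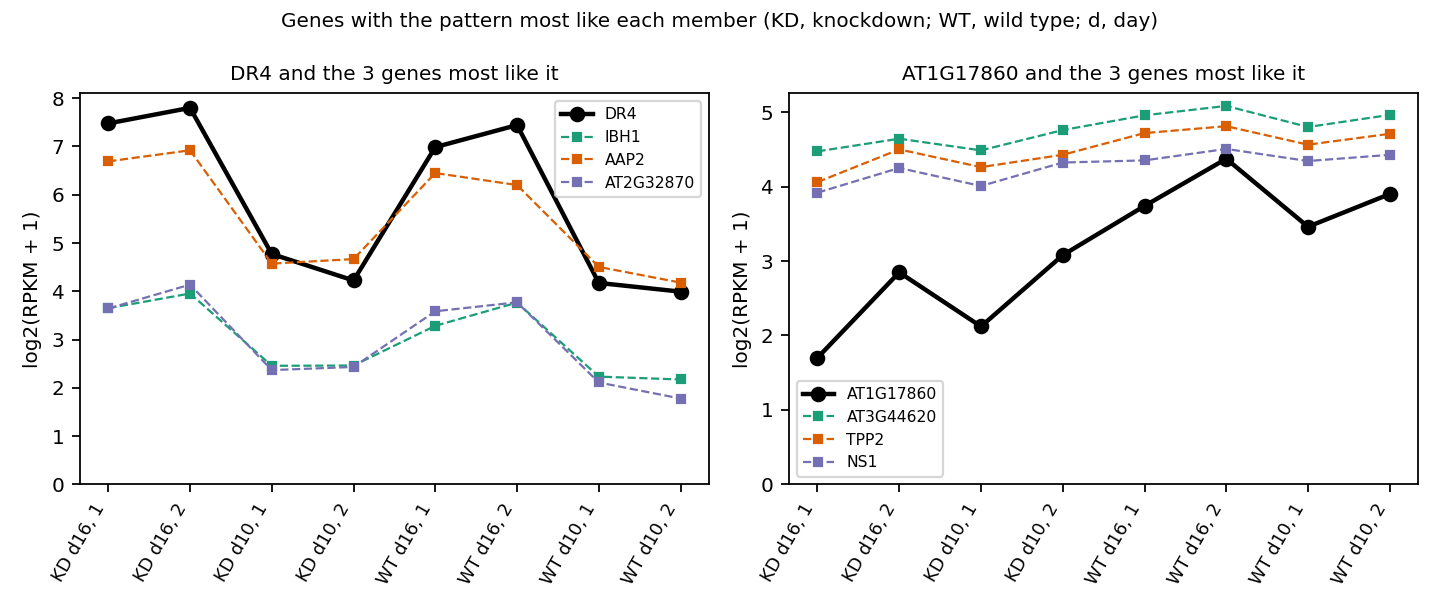
Log2(RPKM + 1) in the 8 libraries of DR4 (left) and AT1G17860 (right) with the 3 genes most like each by Pearson r. IBH1, AAP2 and AT2G32870 are high at day 16 with DR4, while AT3G44620, TPP2 and NS1 move over a narrower range than AT1G17860.

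The tested genes of other protease inhibitor families did not show a change with age of the size of DR4. The Kunitz-type genes were chosen chiefly for that change, so the comparison is a description without a test. Of 24 listed inhibitor genes, counting the 2 other Kunitz-type loci, 15 were tested. They were 5 of 5 mustard-type trypsin inhibitors, 2 of 5 potato type I inhibitors, 7 of 7 cystatins (inhibitors of papain-like proteases), 1 of 5 serpins and 0 of 2 Kunitz loci. None of the 15 was called between the genotypes at either age or in wild type with age, and 1 was called with age in the knockdown line. Of all tested genes 0.269% were called with age in the knockdown line and 0.223% in wild type. Between the genotypes 0.115% were called at day 16 and 0.0744% at day 10. Their log2 changes with age ran from -0.61 to 1.53 in the knockdown line and from -0.79 to 1.02 in wild type, against 3.14 and 3.13 for DR4. The cystatins had a median change of 0.24 in the knockdown line and 0.46 in wild type, where the median of all tested genes was -0.01 and 0.10. The mustard-type inhibitors had a median of -0.06 in the knockdown line and 0.08 in wild type.

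The inhibitor that rose with age in the knockdown line was the cystatin AT5G05110. It had 17.18 and 22.54 RPKM at day 16 and 7.23 and 5.24 RPKM at day 10 in the knockdown line, and 8.36 and 10.89 RPKM at day 16 and 6.07 and 4.63 RPKM at day 10 in wild type. The log2 change was 1.53 ± 0.243 SE in the knockdown line (adjusted p = 0.0388, limma) and 0.74 ± 0.243 SE in wild type (adjusted p = 0.500, limma). The difference between these changes was 0.79 ± 0.344 SE (adjusted p = 1, limma). The call held under 6 of 18 alternatives and was lost without replicate 1 of the knockdown line at day 16 (adjusted p = 0.0908, limma) and without replicate 2 (adjusted p = 0.235, limma). It was also lost without either knockdown library of day 10, replicate 2 of wild type at day 16 or either wild-type library of day 10. Of 10 other processing choices, 5 lost the call (adjusted p from 0.07 to 0.143, limma).

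**Figure D5:**
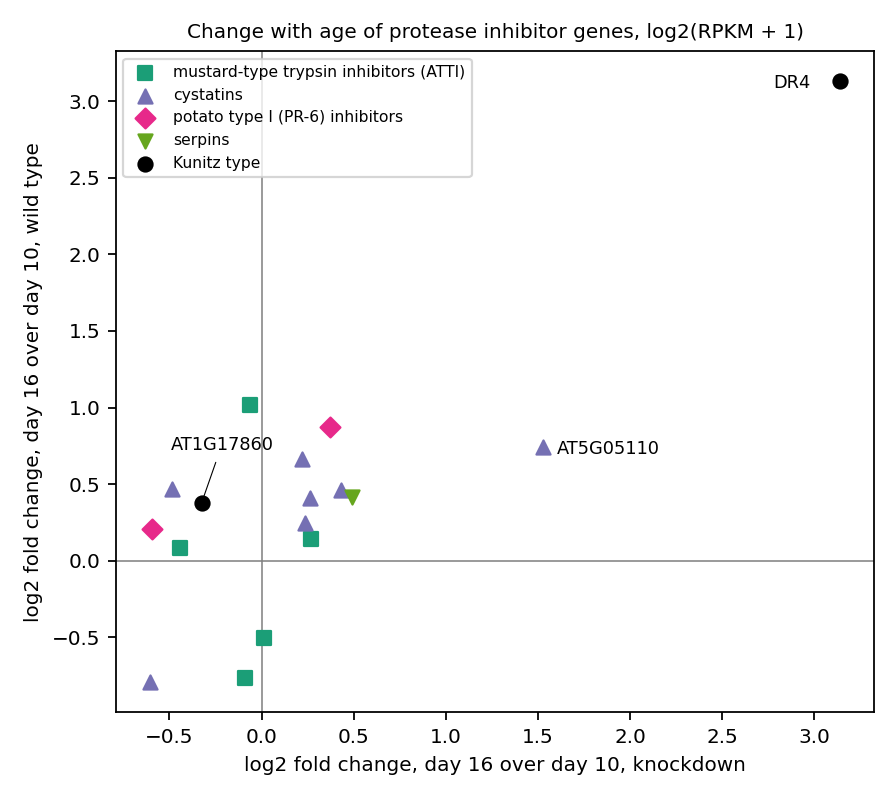
Log2 fold change of day 16 over day 10 on log2(RPKM + 1), in the knockdown line (x axis) and in wild type (y axis), for the 2 tested Kunitz-type genes and 15 other protease inhibitor genes by family. DR4 lies at 3.14 and 3.13, while the other inhibitors lie between -0.61 and 1.53 on the x axis and between -0.79 and 1.02 on the y axis.

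Among 16 papain-like cysteine proteases, 12 were tested and none was called between the genotypes. Of all tested genes, 0.246% were called between the genotypes for the mean of both ages, 0.115% at day 16 and 0.0744% at day 10. AT4G16190 rose with age in the knockdown line, with 197.8 and 289.4 RPKM at day 16 and 93.31 and 88.95 RPKM at day 10 (log2 change 1.38 ± 0.193 SE, adjusted p = 0.0204, limma). In wild type it had 150.0 and 175.61 RPKM at day 16 and 103.68 and 84.1 RPKM at day 10 (0.79 ± 0.193 SE, adjusted p = 0.255, limma). The call in the knockdown line was lost without replicate 2 of day 16 (adjusted p = 0.119, limma), replicate 1 of day 10 (adjusted p = 0.0984, limma) or replicate 2 of day 10 (adjusted p = 0.128, limma). It was also lost under 3 of 10 other processing choices (adjusted p from 0.0503 to 0.105, limma).

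Kunitz-type inhibitors are known to respond to wounding, and DR4 was named for drought, so 12 jasmonate and wound genes and 10 drought and abscisic acid genes were read beside DR4 and AT1G17860. Of the jasmonate list 9 were tested and none was called in any comparison, where 0% to 0.269% of all tested genes were called. Their median log2 change with age was 0.26 in the knockdown line, with 7 of 9 positive, and 0.79 in wild type, with 9 of 9 positive. The changes ran from -0.07 (JAZ10) to 2.03 (VSP1) in the knockdown line. In wild type they ran from 0.12 (AOS) to 3.11 (MYC2). MYC2 was listed at 0 in both wild-type libraries of day 10, which may be failed estimates. All 10 drought genes were tested and none was called, beside the same low shares of all tested genes. Their median log2 change with age was 0.84 in the knockdown line and 0.85 in wild type, and their median difference of knockdown over wild type was 0.27 at day 16 and 0.80 at day 10. The median of all tested genes between the genotypes was -0.11 at day 16 and -0.02 at day 10.

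The drought genes varied widely between the libraries of a group. LTI78, a drought and cold response gene, had 18.46 and 196.1 RPKM in replicates 1 and 2 of the knockdown line at day 16, against 33.39 and 172.32 RPKM in wild type at day 16. Like AT1G17860, LTI78, RD20 and HB-7 of this list were higher in replicate 2 than in replicate 1 in all 4 groups, 3 of 10. So were AOS, JAZ10, AOC3 and LOX3 of the jasmonate and wound list, 4 of 9, beside 15.3% of all tested genes. DR4 did not follow that order, with replicate 1 above replicate 2 in both genotypes at day 10. The part of this replicate difference in the values of AT1G17860 was not tested.

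Markers of the cell types of the apex were read in the same libraries. The summed RPKM of 8 meristem and organ boundary genes was 47.2 to 55.48 in the knockdown line at day 16 and 34.32 to 41.82 at day 10, and 44.2 to 47.23 in wild type at day 16 and 27.73 to 36.09 at day 10. The sum of 12 leaf mesophyll genes was 37570 to 39180 RPKM in the knockdown line at day 16 and 39820 to 52030 at day 10, and 38080 to 45360 in wild type at day 16 and 50400 to 51760 at day 10. All 12 were negative between the genotypes as the mean of both ages. Their median log2 difference was -0.31, where the median of all tested genes was -0.06. None of the 12 was called, where 0.246% of all tested genes were called. RBCS1B, a Rubisco small subunit gene, fell with age in the knockdown line by 1.09 on the log2 scale (adjusted p = 0.0388, limma) and in wild type by 1.09 (adjusted p = 0.0465, limma), and RBCS2B fell in the knockdown line by 1.11 (adjusted p = 0.0388, limma). The knockdown call of RBCS1B was lost without any one of the 4 knockdown libraries (adjusted p from 0.134 to 0.21, limma), its wild-type call without either knockdown library of day 16, replicate 2 of wild type at day 16 or either wild-type library of day 10 (from 0.0973 to 0.368), and that of RBCS2B without replicate 1 of the knockdown line at day 16 or any one library of day 10 (from 0.0561 to 0.187). Of 10 other processing choices, 5 lost the knockdown call of RBCS1B, 7 its wild-type call and 6 that of RBCS2B (adjusted p from 0.0518 to 0.201, limma).

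The sum of 12 vascular genes was 109.4 to 148.8 RPKM in the knockdown line at day 16 and 140.8 to 143.8 at day 10, and 112.4 to 114.2 in wild type at day 16 and 114.7 to 127.1 at day 10. The sum of 7 epidermal genes was 253.8 to 338.3 RPKM in the knockdown line at day 16 and 366.1 to 385.8 at day 10, and 310.7 to 316.5 in wild type at day 16 and 362.1 to 378.5 at day 10. The sum of 9 root genes was 14.25 to 19.79 RPKM in the knockdown line at day 16, 18.01 to 19.68 at day 10, 18.67 to 20.61 in wild type at day 16 and 18.72 to 19.69 at day 10. Without GL2 and SCR, which shoots also express, the root sum was 1.21 to 3.90 RPKM. None of these lists was at 0 throughout, and their part in the values of DR4 and AT1G17860 was not tested.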

How the data were processed

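Per the labels' protocols, total RNA of shoot apices was made into directional mRNA libraries. The authors deposited RPKM values per locus, as the file headers call them, with TAIR10 as the build per the submitters' processing notes. Aligner, counter and strand use in counting are not given in the sources here. A p-value and a linear fold per changed locus were deposited by the authors in 4 tables, the fold as a ratio for higher genes and as a signed score for lower genes; their test is not stated.

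Depth was estimated from the steps of low values (exon length up to 1000 bases, up to 6 reads), of which 99.2% to 100.0% lay within 0.1 of a whole read. Positions, exon lengths and sequences came from RefSeq TAIR10.1, which matched 27445 of 27655 loci. The 2 libraries of a group correlated at a Pearson r of 0.983 to 0.989, and differed by more than sampling noise.

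The 17467 genes that reached 1 RPKM in 2 or more of the 8 libraries were tested on log2(RPKM + 1) by limma 3.58.1 (R 4.3.3), using an intensity trend, 1 coefficient per group, 4 residual and 5.8 prior degrees of freedom. Tests were two-sided, and calls were made at a Benjamini-Hochberg adjusted p under 0.05 over all genes. The words rose and fell mark calls. The log2 scale with 1 added understates the change of weakly expressed loci. The knockdown line was compared with wild type at each age and as the mean of both ages, and day 16 with day 10 in each genotype. Coding sequences were aligned with Biopython 1.88.

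The genes and lists were chosen with earlier results of these data known. Named besides the 5 genes were called members of the 8 gene lists and 5 marker lists, the loci between KTI1 and DR4, the 3 genes most like each tested gene and PECT1. MYC2, RD21A, LTI78, RD20, HB-7, AOS, JAZ10, AOC3, LOX3, VSP1, STM, CLV3, WUS, GL2, SCR and EGY3 fall outside this rule and were named after their values were seen. Alternatives were 2 other pseudocounts, no filter and a stricter one, median-of-ratios and quantile scaling, no trend, only the groups compared, a replicate block, voom on estimated reads, and leaving out each library. No protein sequence was used here.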

Additional observations from a re-analysis of the deposited data

How the results depend on the processing

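Over 408 values recomputed under alternatives no called value changed sign, 318 kept their side of the threshold, moved by less than the spread or stayed within 1.5 times the count, 38 counts moved, 2 values passed newly and 50 values of AT5G05110, AT4G16190, RBCS1B and RBCS2B no longer passed. The sign changed in 9 values without a test, 7 of the DR4 difference of the change with age (-0.27 to -0.0002) and 2 of AT1G17860 with age in the knockdown line (0.25 and 0.15). The cause was not tested. Of 43 genes called between the genotypes as the mean of both ages, the count was 24 without a filter, 20 with voom, 68 with the replicate block and 18 to 48 with one library left out. At day 16 it was 20, and 11 without a filter, 12 with quantile scaling (4 higher and 8 lower, against 4 and 16), 8 with voom and 11 to 19 with one library left out. At day 10 it was 13, and 7 with voom, 20 with the block and 7 to 26 with one library left out. With age in the knockdown line it was 47, and 15 without a filter, 30 without the trend, 27 with only the groups compared, 109 with the block, 26 with voom and 16 to 53 with one library left out. With age in wild type it was 39, and 12 without a filter, 18 with median-of-ratios scaling, 16 without the trend, 22 with only the groups compared, 89 with the block, 14 with voom and 7 to 54 with one library left out. No gene was called for the difference of the change with age by limma under any alternative, voom included, and 288 had an unadjusted p under 0.05.

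DR4 had a log2 change with age of 2.87 to 3.41 in the knockdown line and 2.90 to 3.36 in wild type over all alternatives. The adjusted p of AT1G17860 ranged from 0.00303 to 0.525 as the mean of both ages, from 0.012 to 0.934 at day 16 and from 0.268 to 1 at day 10. It passed with the replicate block, at -1.43 as the mean (adjusted p = 0.00303, limma) and -1.78 at day 16 (adjusted p = 0.012, limma). The labels do not say what a replicate number marks, and replicate differences of 2 groups correlated across genes at -0.24 to 0.33, so the numbers were not taken as pairs, and whether they mark a shared batch was not tested. Median-of-ratios scaling, which centres the data by construction, moved the median of all genes at day 16 between the genotypes from -0.11 to 0.003 and that with age in wild type from 0.10 to 0.01. As deposited, the median between the genotypes at day 16 was 0.01 without replicate 1 of the knockdown line and -0.24 without replicate 2. Fits with only the groups compared do not apply to contrasts over all 4 groups. A group of 2 libraries, and a few reads per library for KTI1 and AT1G73325, limit what could be detected.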
